A study of Mus musculus with 16 samples.

Results

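The 10 genes described here mark natural killer (NK) cells and cytotoxic lymphocytes, and they were followed by RNA sequencing in 16 leukaemic mice, whose tissue label is T-ALL, a leukaemia of immature T cells. They were chosen by symbol from a list of NK markers after earlier results of these data were known, and they are 10 of the 41214 genes in the count tables. The receptors are Klrb1c, Klrk1, Klrd1 and Ncr1, the effector molecules Gzma, Gzmb, Prf1 and Nkg7, and the signalling adaptors Tyrobp and Fcer1g. All 10 were among the 17470 genes that passed the filter on low counts. In the earlier results an NK marker list had been lower in the Vav group and higher in the Lck group than with Miz1 wt among ICN leukaemias without p53, so differences between those 3 groups are given below as a description, and no test of them is read.

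All mice were of the strain C57Bl6, and each of 8 groups held 2 mice. In 6 groups the leukaemia was induced by ICN (the label for Notch induction): Miz1 wt, Miz1 deltaPOZ with the title suffix Lck, and Miz1 deltaPOZ with the suffix Vav, each with p53 wt and with p53 ko. The other two groups had p53 ko without ICN, with Miz1 wt or with Miz1 deltaPOZ and the suffix Vav. Miz1, encoded by Zbtb17, is a transcription factor, and deltaPOZ is a protein without its POZ domain. The labels do not explain Lck and Vav, which are also names of promoters used in blood cells, and give neither the organ sampled, the age and sex of the mice nor a batch.

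NK cells and cytotoxic T cells kill by releasing granules that hold perforin, which forms pores, and granzymes, proteases that trigger death in the target cell. NK cells decide when to do so by weighing activating receptors, which signal through small adaptor proteins such as those of Tyrobp (DAP12) and Fcer1g (the Fc receptor gamma chain), against inhibitory ones. In C57BL/6 mice Klrb1c encodes NK1.1, the antigen by which NK cells and NKT cells are usually sorted, and Ncr1 encodes NKp46, a receptor largely restricted to NK cells and other innate lymphoid cells. The adaptors are also abundant in macrophages, neutrophils, mast cells and basophils.

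On GRCm38, with GENCODE M21 models, 3 receptor genes lie on chromosome 6 in the NK gene complex: Klrb1c at 128778485 to 128789215, Klrd1 at 129591782 to 129598775 and Klrk1 at 129610323 to 129623864. Chromosome 7 holds Ncr1 (4337724 to 4345164), Tyrobp (30413760 to 30417585) and Nkg7 (43437073 to 43438249). Fcer1g is on chromosome 1 (171229572 to 171234365), Prf1 on 10 (61297833 to 61304680), Gzma on 13 (113093825 to 113100981) and Gzmb on 14 (56258838 to 56262260). The model Gm44511 overlaps Klrb1c on the same strand and was not analysed here. Gzma belongs to a family of related proteases, and counts use uniquely placed reads only.

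RefSeq promoters (GRCm38.p6) matched 8 of the 10 genes, all but Klrd1 and Tyrobp. The 250 bases before the RefSeq start of 4 genes are shown for the receptor, both granzymes and the granule protein on which the results below turn. Capitals mark matches on either strand to GTGTGA (the core bound by T-box factors such as T-bet and Eomes), TGTGGT (RUNX core), AGGAAG (ETS core) or TTCNNNGAA (STAT), and neighbouring matches may overlap. Klrb1c is at chr6:128788642-128788891 (minus strand), Gzma at chr13:113100982-113101231 (minus), Gzmb at chr14:56262335-56262584 (minus) and Nkg7 at chr7:43436888-43437137 (plus). The RefSeq start need not be the GENCODE start.
Klrb1c: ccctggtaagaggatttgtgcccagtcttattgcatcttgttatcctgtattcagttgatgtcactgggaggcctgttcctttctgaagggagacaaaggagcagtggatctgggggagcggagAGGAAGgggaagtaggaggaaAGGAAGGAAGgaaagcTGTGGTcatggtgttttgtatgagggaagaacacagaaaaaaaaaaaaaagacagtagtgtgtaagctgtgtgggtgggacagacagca
Gzma: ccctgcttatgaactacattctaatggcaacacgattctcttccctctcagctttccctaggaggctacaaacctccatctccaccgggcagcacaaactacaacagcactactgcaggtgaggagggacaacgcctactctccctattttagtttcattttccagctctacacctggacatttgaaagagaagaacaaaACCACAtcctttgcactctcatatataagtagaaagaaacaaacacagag
Gzmb: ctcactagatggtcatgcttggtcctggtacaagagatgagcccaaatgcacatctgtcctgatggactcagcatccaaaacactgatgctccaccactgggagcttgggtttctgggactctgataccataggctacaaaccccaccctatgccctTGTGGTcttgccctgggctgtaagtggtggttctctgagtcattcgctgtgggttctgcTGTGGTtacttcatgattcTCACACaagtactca
Nkg7: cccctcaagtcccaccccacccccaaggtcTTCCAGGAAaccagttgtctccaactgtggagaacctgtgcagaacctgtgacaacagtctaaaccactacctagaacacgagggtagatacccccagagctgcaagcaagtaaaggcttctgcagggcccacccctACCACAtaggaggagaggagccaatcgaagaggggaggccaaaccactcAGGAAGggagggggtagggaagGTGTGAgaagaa
TGTGGT occurred in 7 of the 8 promoters, all but that of Fcer1g, and in 14% of 32851 promoters of the same length. GTGTGA occurred in 3 of the 8 (Ncr1, Gzmb and Nkg7) and in 12.3% of all. AGGAAG was in 4 of the 8 (Klrb1c, Prf1, Nkg7 and Fcer1g) and in 29.5% of all, and TTCNNNGAA in 1 of the 8 (Nkg7) and in 7.02% of all. Klrb1c held 3 AGGAAG matches, and neither Klrb1c nor Gzma held GTGTGA. These matches describe the letters and not bound sites.

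The libraries held 36463524 to 68523196 gene counts, so 3 counts, the limit of detection used here, stood for 0.0431 to 0.0839 CPM (read counts scaled to library size, with TMM factors). T cell markers were present in every library, with summed levels of 2649 to 6121 CPM with ICN and 4966 to 11934 CPM without it. Markers of other blood cells were not evenly spread: 7 erythroid markers summed to 4149 to 22264 CPM in the 12 ICN libraries and 6.67 to 38.1 CPM in the 4 libraries without ICN, and 11 neutrophil markers to 55.9 to 9171 and 2.05 to 2.27 CPM. Trp53 ranged from 70.2 to 113 CPM over 6 mice with p53 and from 7.32 to 30.6 CPM over 10 mice labelled p53 ko, with no overlap. Zbtb17 and Notch1 do not check the labels, because a count over the whole gene does not separate a protein that lacks one domain or an added intracellular fragment. In bulk RNA, fewer cells of a type and less RNA per cell cannot be told apart. The labels name separate mice, and every p-value below measures the spread between these mice.

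**Figure D1:**
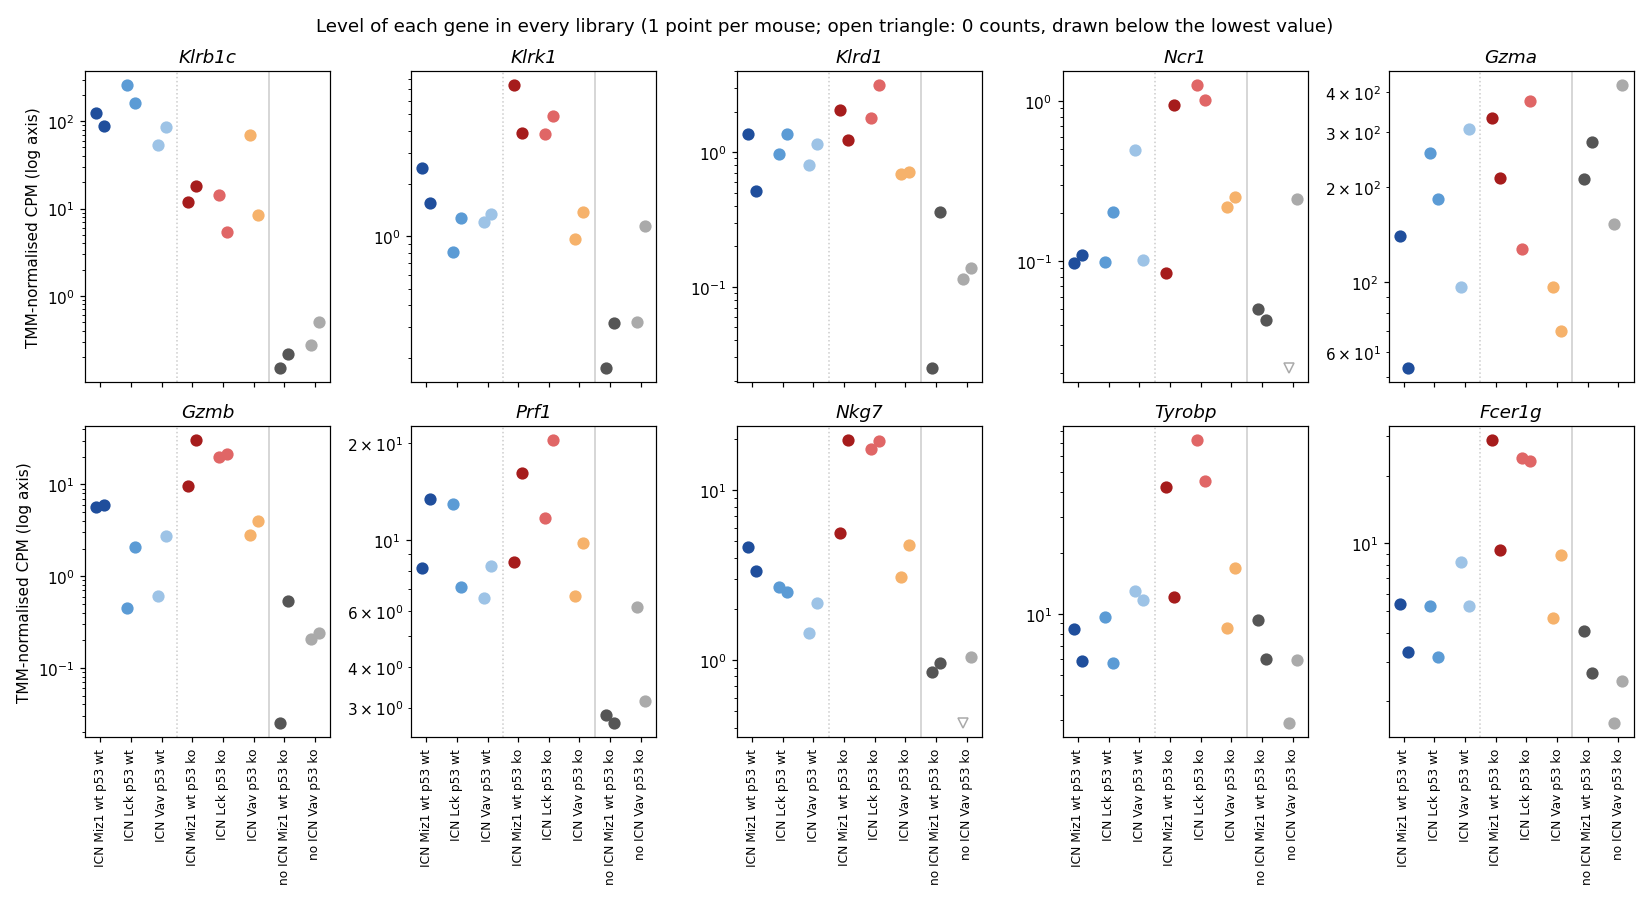
TMM-normalised CPM (log axis) of the 10 genes in each of 16 mice, by group, with 1 point per mouse and an open triangle for 0 counts. Klrb1c is highest in ICN p53 wt, most other genes in the ICN Lck and ICN Miz1 wt groups with p53 ko, and Gzma is high in every group.

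Per kilobase of exon, the median levels over the 16 libraries, given here as CPM per kilobase, lay far apart. Gzma, a tryptase granzyme, was highest at 197, followed by Tyrobp at 14.3, Fcer1g at 6.06 and Klrb1c at 5.47. Prf1 and Nkg7 were both at 3.17 and Gzmb at 1.93. The receptors Klrd1, Klrk1 and Ncr1 were lowest, at 0.690, 0.182 and 0.102. In single libraries Klrb1c reached 87.6 CPM per kilobase, against a highest value of 0.819 for Ncr1. Both are used to define NK cells in this strain.

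Klrb1c (NK1.1) was abundant in leukaemias with ICN and p53. With p53 wt it reached 123 and 89.1 CPM in Miz1 wt mice, 259 and 162 CPM in Lck mice and 53.2 and 86.8 CPM in Vav mice. With ICN and p53 ko the values were 12 and 18.0 CPM for Miz1 wt, 14.4 and 5.43 CPM with Lck, and 69.1 and 8.50 CPM with Vav. Without ICN all 4 libraries lay at 0.150 to 0.503 CPM, from 6 to 29 counts. Every ICN library was above every library without ICN, and among ICN libraries one p53 ko mouse, Vav replicate 1, reached into the p53 wt range. By mean level the Lck p53 wt group stood apart from the next, Miz1 wt with p53 wt, which stood apart from Vav with p53 wt, and Vav with p53 wt overlapped Vav with p53 ko.

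Ncr1 (NKp46) did not go with Klrb1c. In Lck mice with p53 wt, where Klrb1c had 13158 and 7162 counts, Ncr1 had 5 and 9 counts. Its level was 0.0970 and 0.110 CPM with Miz1 wt, 0.0986 and 0.203 with Lck and 0.497 and 0.102 with Vav, all with ICN and p53 wt. With ICN and p53 ko it was at 0.0839 and 0.953 CPM with Miz1 wt, 1.26 and 1.01 with Lck, and 0.218 and 0.251 with Vav. Without ICN it had 2 and 3 counts with Miz1 wt and 0 and 14 counts with Vav. The 3 libraries above 0.6 CPM were both Lck p53 ko mice and replicate 2 of Miz1 wt p53 ko, and 4 of the 16 libraries held 3 counts or fewer.

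Klrk1 encodes NKG2D, an activating receptor for stress-induced ligands that is shared by NK cells and CD8 T cells. Levels of 7.38 and 3.89 CPM were found for ICN Miz1 wt p53 ko, and of 3.87 and 4.93 CPM in ICN Lck p53 ko mice. ICN Vav p53 ko mice had 0.964 and 1.38 CPM, and the 6 ICN p53 wt libraries lay between 0.808 and 2.46 CPM. These 4 high libraries did not overlap any other. Without ICN, Klrk1 had 0.175 and 0.316 CPM for Miz1 wt and 0.320 and 1.15 CPM with Vav.

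Klrd1 encodes CD94, the partner of the NKG2 receptors that bind Qa-1. Its levels with ICN ran from 0.513 to 3.15 CPM. The highest values were 1.78 and 3.15 CPM in both ICN Lck p53 ko mice and 2.07 CPM in replicate 1 of ICN Miz1 wt p53 ko, whose replicate 2 had 1.23 CPM. Without ICN its values were 0.0250 and 0.359 CPM for Miz1 wt and 0.114 and 0.139 CPM with Vav, the first from 1 count. The ICN and no-ICN ranges did not overlap.

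Per kilobase of exon, Gzma was the highest of the 10 genes in each of the 16 libraries. With ICN and p53 wt, Miz1 wt mice had 140 and 53.6 CPM, Lck mice 257 and 184 and Vav mice 96.5 and 307. With ICN and p53 ko, Gzma stood at 330 and 214 CPM for Miz1 wt, 128 and 374 for Lck and 96.3 and 69.9 for Vav. Without ICN the values were 213 and 278 CPM with Miz1 wt and 153 and 422 CPM with Vav. No 2 neighbouring groups in the order of Gzma means stood apart, and its whole range over the 16 libraries was 7.86-fold.

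Gzmb, the granzyme that cleaves after aspartate and activates caspases, varied far more. Its highest levels were 30.3 CPM in ICN Miz1 wt p53 ko replicate 2 and 19.8 and 21.3 CPM in ICN Lck p53 ko, with 9.70 CPM in replicate 1 of the former group. ICN Vav p53 ko mice had 2.82 and 3.99 CPM. With p53 wt, Miz1 wt mice had 5.65 and 6.03 CPM, against 0.454 and 2.10 with Lck and 0.611 and 2.73 with Vav. The 2 Miz1 wt p53 wt libraries thus lay above all 4 deltaPOZ p53 wt libraries. Without ICN it had 0.0250 to 0.531 CPM, from 1 to 37 counts.

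Nkg7, a membrane protein of cytotoxic granules, followed Gzmb. It was at 19.6 CPM in ICN Miz1 wt p53 ko replicate 2, 17.4 and 19.4 CPM in ICN Lck p53 ko and 5.62 CPM in Miz1 wt p53 ko replicate 1. The remaining ICN libraries had 1.43 to 4.76 CPM. Without ICN, Miz1 wt mice had 0.851 and 0.961 CPM and Vav mice 0 and 1.04 CPM, and the library with 0 counts allows up to 0.0687 CPM by counting error.

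Prf1 (perforin) varied least of the 10 genes over the 12 ICN libraries (SD of log2 CPM 0.53, against 0.72 to 1.88 for the others). With p53 wt its levels were 8.15 and 13.4 CPM for Miz1 wt, 12.9 and 7.13 with Lck and 6.57 and 8.26 with Vav. With p53 ko they were 8.53 and 16.1 CPM for Miz1 wt, 11.7 and 20.4 with Lck and 6.66 and 9.77 with Vav. All of these lay above the 4 libraries without ICN, with 2.85 and 2.68 CPM for Miz1 wt and 6.18 and 3.14 CPM with Vav.

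Tyrobp and Fcer1g peaked in 3 libraries, both ICN Lck p53 ko mice and replicate 1 of ICN Miz1 wt p53 ko. Tyrobp was there at 71.8, 45.4 and 42.3 CPM, and Fcer1g at 23.9, 23.1 and 28.6 CPM. In the other 9 ICN libraries Tyrobp was at 5.76 to 16.9 CPM and Fcer1g at 3.14 to 9.35 CPM. Without ICN, Tyrobp was at 2.91 to 9.41 CPM and Fcer1g at 1.60 to 4.08 CPM, ranges that overlap those with ICN. Replicate 2 of ICN Miz1 wt p53 ko had the most Gzmb and Nkg7, but 12.1 CPM of Tyrobp and 9.35 CPM of Fcer1g.

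Induction by ICN was compared among p53 ko leukaemias, with 4 mice (Miz1 wt and Vav) on each side. Levels rose for 8 of the 10 genes and fell for 0 at an adjusted p under 0.05 (edgeR quasi-likelihood test, Benjamini-Hochberg adjustment over all genes), where the same test called 12.9% of all genes higher and 11.1% lower. Klrd1 had 1 to 25 counts and Ncr1 0 to 14 counts in the libraries without ICN, so both passed the filter through ICN libraries. They could hardly be called lower, and this count is therefore fixed in part by the filter. Klrb1c rose most (log2 fold change 6.46, SE 0.69, adjusted p = 0.000144), in 4 of 4 mice. Gzmb rose by a log2 fold change of 4.996 (SE 0.84, adjusted p = 0.0020) and Nkg7 by 3.34 (SE 0.83, adjusted p = 0.0147). Klrd1 (2.73), Klrk1 (2.58), Fcer1g (2.11), Tyrobp (1.67) and Prf1 (1.49) were the others, with adjusted p of 0.00275 to 0.0162. Gzma (log2 -0.82, SE 0.48, adjusted p = 0.238) and Ncr1 (2.16, SE 0.94, adjusted p = 0.117) did not pass. The median log2 fold change of the 10 genes was 2.37, beside -0.02 over all genes tested.

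**Figure D2:**
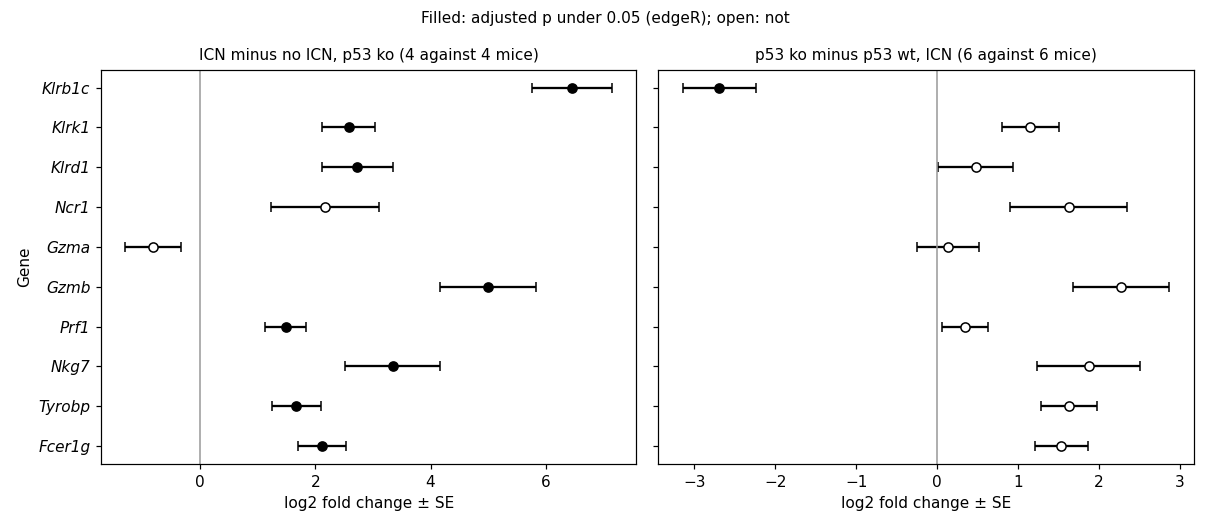
Log2 fold change with its SE for each gene, ICN minus no ICN among p53 ko mice on the left and p53 ko minus p53 wt among ICN mice on the right, filled where the adjusted p is under 0.05. Klrb1c has the largest rise on the left (6.46) and is the gene that fell on the right (-2.69).

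Within Miz1 wt mice alone, a split chosen after seeing the data, 6 of the 10 genes rose, where 6.7% of all genes did, and within Vav mice 1 of 10, Klrb1c, where 4.99% did. These counts use the ICN p53 ko groups whose difference led to the choice of genes, so nothing is read from their difference. Klrb1c differed by 6.31 (SE 0.99) and 6.61 (SE 0.97) on the log2 scale in these strata, and Klrk1 by 4.49 (SE 0.70) and 0.67 (SE 0.61). The Klrk1 values of the strata differed by -3.82 (SE 0.90), which includes the difference between Vav and Miz1 wt with ICN and p53 ko and is given as a description. Over all 12 ICN libraries, Klrb1c, Klrd1, Prf1 and Nkg7 lay above all 4 libraries without ICN, as 8.25% of all genes did, and 0 of the 10 lay below, as 5.74% did. The limit set by the filter, given above for Klrd1 and Ncr1, holds for these counts too. Those 12 libraries also held the erythroid, neutrophil and B cell markers given above and here: 7 of 7 erythroid, 11 of 11 neutrophil, 8 of 9 mast cell and basophil and 7 of 8 B cell markers rose in the same comparison, as did 5 of 15 macrophage and 2 of 9 dendritic cell markers, while 2 of 5 innate-like T cell markers fell, and Fcer1a and Mcpt4 had 0 counts in all 4 libraries without ICN. Of all genes, 12.9% rose and 11.1% fell in that comparison. Without ICN, neutrophil markers summed to 2.05 to 2.27 CPM, with 1 to 4 genes at 0 counts in a library. Mast cell and basophil markers summed to 0.595 to 1.93 CPM there, with 4 to 7 genes at 0. Markers so near 0 passed the filter through ICN libraries and could hardly be called lower, so nothing is read from these counts. The part of these markers in the results was not tested. Calls were lost for Prf1 without ICN Miz1 wt p53 ko replicate 2 (adjusted p = 0.0505) or ICN Vav p53 ko replicate 2 (0.0548), for Nkg7 without no-ICN Miz1 wt replicate 1 (0.0504), and for Tyrobp without ICN Miz1 wt p53 ko replicate 1 (0.0682), ICN Vav p53 ko replicate 2 (0.0698) or no-ICN Miz1 wt replicate 2 (0.0577). Ncr1 passed without no-ICN Vav replicate 2 (log2 5.01, adjusted p = 0.0263). Without the same library Nkg7 differed by 7.22, since the other Vav library has 0 counts, and without no-ICN Miz1 wt replicate 2 Gzmb differed by 6.66 and Klrd1 by 4.12 on the log2 scale. Klrb1c differed by 5.39 without ICN Vav p53 ko replicate 1.

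The same comparison was read in the rest of the cytotoxic pathway. Among 27 other NK receptors, 18 were measured well enough to test, and 8 rose and 0 fell, beside 12.9% and 11.1% of all genes. Some, such as Klrg1 and Klra7, were near 0 without ICN, so they passed the filter through ICN libraries and could hardly be called lower. This count is therefore fixed in part by the filter. Klrg1, an inhibitory receptor of mature effector cells, rose by 6.82 on the log2 scale (adjusted p = 0.000996), Klrc1 (NKG2A) by 4.09 (0.00101), Cd244a (2B4) by 4.08 (0.000451), Itga2 (CD49b) by 3.35 (0.00833), Klrc2 (NKG2C) by 2.98 (0.00786) and Fcgr3 (CD16) by 1.41 (0.00997). Their highest levels were 72.8 CPM for Fcgr3, 21.5 for Cd244a, 4.14 for Klrg1, 3.77 for Klrc1, 2.27 for Itga2 and 0.727 for Klrc2. Without ICN, Klrg1 had a mean of 0.0197 CPM with Miz1 wt and 0 CPM with Vav. Both lie under the limit of 3 counts, so its fold change is no bound. Klrc1 with Miz1 wt (0.0359 CPM) and Klrc2 (0.0484 CPM with Miz1 wt, 0.0260 CPM with Vav) were near that limit. The Ly49 receptors Klra3, Klra4, Klra5, Klra6, Klra8, Klra9 and Klra10 were below the filter, with highest values of 0.0182 to 0.263 CPM. Klrb1b, beside Klrb1c on the chromosome, was at most 1.31 CPM and did not pass (log2 0.84, adjusted p = 0.425).

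Of 16 other granzymes and effector molecules, 13 were tested, and 8 rose and 0 fell, beside 12.9% and 11.1% of all genes. Without ICN the 16 genes summed to 8.52 to 22.0 CPM, with 2 to 5 of them at 0 counts in a library. Tested genes near 0 there could hardly be called lower, so this count too is fixed in part by the filter. Gzmk rose by 4.39 (adjusted p = 0.00423), Ifng by 3.55 (0.0142), Ccl5 by 2.89 (0.0135), Ccl3 by 2.70 (0.00289), Fasl by 2.55 (0.0200) and Ccl4 by 2.40 (0.0158) on the log2 scale. Beside the same shares of all genes, 7 of 12 genes in the machinery of granule formation and release rose and 0 fell. They include Stx11 (3.06, adjusted p = 0.000602), a syntaxin needed for degranulation, Srgn (2.60, 0.00264), the proteoglycan that holds granzymes, and Ctsc (1.03, 0.000962), the peptidase that activates progranzymes.

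Of 12 transcription factors of the cytotoxic programme 2 rose and 2 fell, close to the 12.9% and 11.1% of all genes, so this count is no result about the list. Prdm1 (Blimp-1) rose by 2.35 (adjusted p = 0.00169) and Zeb2 by 2.05 (0.00188), while Tbx21 (T-bet) fell by 3.12 (0.0214) and Ets1 by 1.01 (0.0227). Of 9 IL-15 and related cytokine and receptor genes, both chains of the IL-18 receptor rose, Il18rap by 4.86 (0.00188) and Il18r1 by 2.25 (0.0105). Of 12 adaptors and proximal kinases, Sh2d1b2 (4.21, 0.000547), Plcg2 (2.05, 0.0334), Syk (1.45, 0.0107) and Sh2d1a (1.29, 0.0161) rose and Lat fell by 0.96 (0.00981). Of 3 tested NKG2D ligands, Raet1d rose (4.22, 0.0310), at levels of at most 0.418 CPM. The shares of all genes, 12.9% higher and 11.1% lower, also stand beside the calls for cytokine genes, adaptors and ligands. Nothing is read from these counts.

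Klrb1c has neighbours that encode ligands and relatives of its family. Within 500 kb on either side, 21 genes were tested, Klrb1c included, of which 5 rose and 2 fell with ICN, beside 12.9% and 11.1% of all genes, and nothing is read from this count. Besides Klrb1c they were Cd69 (log2 2.71, adjusted p = 0.00669), Clec2d (1.69, 0.00510), which encodes a ligand of an NKR-P1 receptor, Gm15987 (5.33, 0.00216), an antisense transcript, and the pseudogene Clec2f (5.40, 0.0145), whose level was at most 0.252 CPM. Since the strand setting of the counting is not known, reads of an antisense gene and its partner cannot be told apart. Tulp3 and Foxm1 fell by 1.84 (0.00111) and 0.64 (0.0290). In the p53 comparison below, Klrb1c was the one call among the 21.

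Loss of p53 was compared among ICN leukaemias, with 6 mice (Miz1 wt, Lck and Vav) on each side. Klrb1c fell with p53 ko (log2 -2.69, SE 0.45, adjusted p = 0.0478), and it was the 1 gene of 10 that passed; 0.0744% of all genes were called lower and 0.12% higher. Mean levels went from 129 to 21.2 CPM. The other 9 genes had positive differences and did not pass: Gzmb 2.27 (SE 0.59, adjusted p = 0.121), Nkg7 1.87 (0.64, 0.195), Tyrobp 1.63 (0.35, 0.0798), Ncr1 1.62 (0.72, 0.309), Fcer1g 1.53 (0.33, 0.0800), Klrk1 1.15 (0.35, 0.160), Klrd1 0.48 (0.46, 0.666), Prf1 0.34 (0.29, 0.610) and Gzma 0.13 (0.39, 0.904). The median of the 10 was 1.34, beside 0.00398 over all genes. No member separated all 6 mice from the other 6 in either direction, as 0.973% of all genes did upward and 1.63% downward.

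That call on Klrb1c was close to the threshold. It held without either ICN Vav p53 ko library (adjusted p = 0.00726 without replicate 1, the mouse at 69.1 CPM, and 0.0422 without replicate 2) or no-ICN Vav replicate 2 (0.0474), and was lost without any other library (0.0504 to 0.162), while the log2 difference stayed between -3.40 and -2.42. DESeq2 called 6 of the 10, Klrb1c lower (adjusted p = 5.64e-07) and Klrk1, Gzmb, Nkg7, Tyrobp and Fcer1g higher, where it called 2.24% of all genes lower and 3.97% higher. Nkg7 passed in edgeR without no-ICN Vav replicate 1 or 2 (adjusted p = 0.0481 and 0.0449), and Tyrobp and Fcer1g passed without ICN Miz1 wt p53 ko replicate 2 (0.0418 and 0.0434).

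Split by Miz1 group, after seeing the data, the Klrb1c difference was -2.82 (SE 0.79) with Miz1 wt, -4.41 (SE 0.85) with Lck and -0.85 (SE 0.74) with Vav. Tyrobp differed by 1.92 (SE 0.60), 2.92 (SE 0.63) and 0.04 (SE 0.58) in the same order, and Gzmb by 1.78 (SE 1.01), 4.01 (SE 1.11) and 1.02 (SE 0.997). These values use the ICN p53 ko groups whose difference led to the choice of genes, so nothing is read from differences between the strata. In each stratum 0 of the 10 passed, where 0.00572%, 0.00572% and 0.0172% of all genes did. Of 18 other NK receptors, Fcgr3 rose with p53 ko (log2 1.85, SE 0.27, adjusted p = 0.0267) and no other passed, and 0 of 13 other effectors passed. Fcgr3 is also a receptor of macrophages and neutrophils. Neutrophil markers summed to 55.9 to 907 CPM in the p53 wt mice and 56.5 to 9171 CPM in the p53 ko mice, macrophage markers to 202 to 439 and 328 to 1696 CPM, and mast cell and basophil markers to 2.93 to 18.1 and 6.79 to 192 CPM. Of the 11 neutrophil, 15 macrophage and 9 mast cell and basophil markers 0 passed, and their part in the result was not tested.

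**Figure D3:**
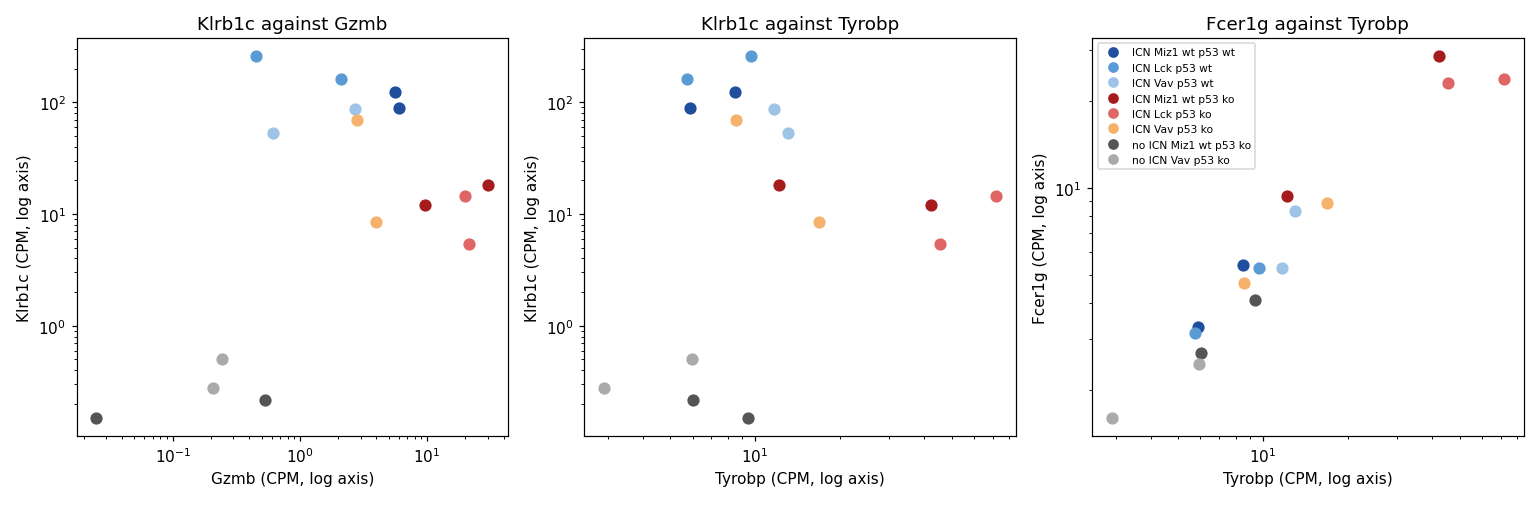
Levels of pairs of genes in the 16 mice, in CPM on log axes and coloured by group: Klrb1c against Gzmb, Klrb1c against Tyrobp, and Fcer1g against Tyrobp. Among ICN mice Klrb1c is high where Tyrobp is low (r = -0.79 over 12), and Fcer1g follows Tyrobp (r = 0.97).

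The POZ deletion of Miz1 was compared within each background. With ICN and p53 wt, 0 of 10 genes passed and 0% of all genes did. Gzmb was lower in 4 of 4 deltaPOZ mice than in both Miz1 wt mice (log2 -2.00, SE 0.82, adjusted p = 0.9999 in edgeR), as were Klrk1 (-0.81, SE 0.51) and Nkg7 (-0.88, SE 0.90). These 3 of 10 compare with 5.95% of all genes that were lower without overlap, and 0 of 10 were higher without overlap, beside 5.45% of all. Without ICN 0 of 10 passed, again beside 0% of all genes. There Klrk1 was higher in 2 of 2 deltaPOZ mice (log2 1.56, SE 0.64, adjusted p = 0.590 in edgeR), at levels of at most 1.15 CPM, as were Klrb1c (1.06, SE 0.99), at most 0.503 CPM, and Prf1 (0.75, SE 0.50). Tyrobp (-0.80, SE 0.59) and Fcer1g (-0.73, SE 0.57) were lower in 2 of 2. Of all genes 12.8% were higher and 13.2% lower without overlap in this comparison of 2 mice with 2. Without no-ICN Vav replicate 2 the Nkg7 difference of -0.78 became -8.50 (adjusted p = 0.0436), and the library left in that group has 0 counts, so that this fitted value is no bound. The unadjusted p was under 0.05 for 1 of the 10 genes in each of these 2 backgrounds. Of all genes, 1.87% had such a p with ICN and p53 wt and 7.68% without ICN, and nothing is read from this count.

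With ICN and p53 ko, where the earlier results drew attention to these genes, Miz1 deltaPOZ minus Miz1 wt ranged from -1.31 (Klrk1, SE 0.50) to 0.38 (Klrb1c, SE 0.65) on the log2 scale. The average of the 3 backgrounds, which includes this one, ranged from -1.21 (Gzmb, SE 0.54) to 0.80 (Ncr1, SE 0.70). For 8 of the 10 genes, all but Klrk1 and Gzma, the mean of Miz1 wt lay between those of Lck and Vav. Differences between these 3 groups led to the choice of genes, and the share over all genes was not computed, so nothing is read from this count. These groups also enter the p53 and ICN comparisons, which are therefore not separate samples.

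Lck and Vav mice were set side by side among ICN deltaPOZ leukaemias. With p53 wt, Klrb1c was 3.01-fold higher in Lck than in Vav mice (log2 1.59, SE 0.75, adjusted p = 1 in edgeR), with no overlap, as was Nkg7 (0.53, SE 1.08). Tyrobp (-0.68, SE 0.59) and Fcer1g (-0.69, SE 0.56) were lower in both Lck mice. Of all genes 16.1% were higher and 15.5% lower without overlap. The test called 0 of the 10 and 0% of all genes. With p53 ko, 9 of the 10 genes were higher in both Lck mice than in both Vav mice, as 21.2% of all genes were, and 0 were lower in both, as 17.9% of all genes were. The difference between these p53 ko groups led to the choice of genes, so nothing is read from this count and the values are a description. Mean levels in Lck and Vav mice were 58.6 and 12.7 CPM for Tyrobp, 23.5 and 6.77 CPM for Fcer1g, 20.6 and 3.40 CPM for Gzmb, 18.4 and 3.93 CPM for Nkg7, and 4.40 and 1.17 CPM for Klrk1. The log2 differences were 2.20 (SE 0.61) for Tyrobp, 1.80 (SE 0.57) for Fcer1g, 2.59 (SE 1.04) for Gzmb and 1.91 (SE 0.62) for Klrk1. Klrb1c was the exception, with a difference of -1.97 (SE 0.76) that rested on Vav replicate 1 and became 0.23 without it. In the same p53 ko mice neutrophil markers summed to 9171 and 6523 CPM with Lck and 554 and 1568 CPM with Vav, and macrophage markers to 1696 and 1263 CPM with Lck and 328 and 385 CPM with Vav. Their part in the differences was not tested.

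**Figure D4:**
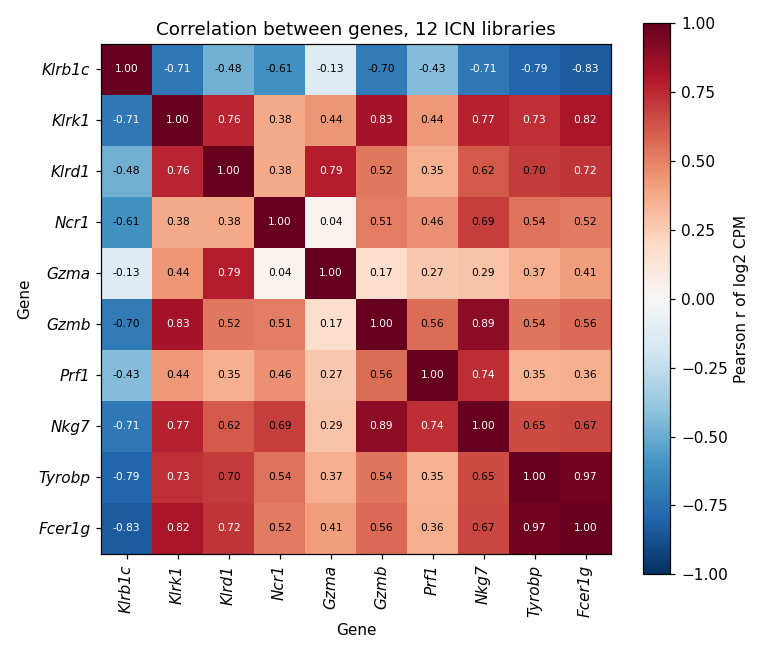
Pearson r of log2 CPM between each pair of the 10 genes over the 12 ICN libraries. Klrb1c has negative values with all 9 others, Gzmb and Nkg7 (0.89) and Tyrobp and Fcer1g (0.97) pair most closely, and Gzma has weak values with most.

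Over the 12 ICN libraries, which share group structure and p53 status, the 10 genes did not move as 1 set. Tyrobp and Fcer1g had r = 0.97 (Spearman 0.92), Gzmb and Nkg7 0.89 (0.92), Klrk1 and Gzmb 0.83 (0.90) and Klrd1 and Gzma 0.79 (0.76). Gzma and Gzmb had r = 0.17. Klrb1c was negatively related to each of the others, from -0.83 with Fcer1g to -0.13 with Gzma. These values describe 12 libraries.

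The protein-coding genes most like each member in the same 12 libraries, by r of log2 CPM, differed between members. For Klrb1c they were Fam92a (0.96), Shisa5 (0.95) and Parp3 (0.95). Klrk1 was nearest to Havcr2 (TIM-3, 0.97), Ckap2l (0.95) and the NK receptor Klrc1 (0.95), and Gzmb to the chemokines Ccl4 (0.95) and Ccl3 (0.94) and to Knstrn (0.93). Nkg7 was nearest to Stk39 (0.96), Tgtp1 (0.95) and Spint1 (0.94). Tyrobp was near to Fam129a (0.99) and Pirb (0.99), a paired immunoglobulin-like receptor. Fcer1g was nearest to Lrrc25 (0.99), Ctss (0.98) and Tgfbi (0.98). Near genes were Tas1r3 and Smad7 for Klrd1 (both 0.92), Pgd, Dctn1 and Vnn3 for Ncr1 (0.89 to 0.90), Cabp1, Fam49a and Deptor for Gzma (0.87 to 0.89), and Acot11, Mroh1 and Gga3 for Prf1 (0.86 to 0.87).

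**Figure D5:**
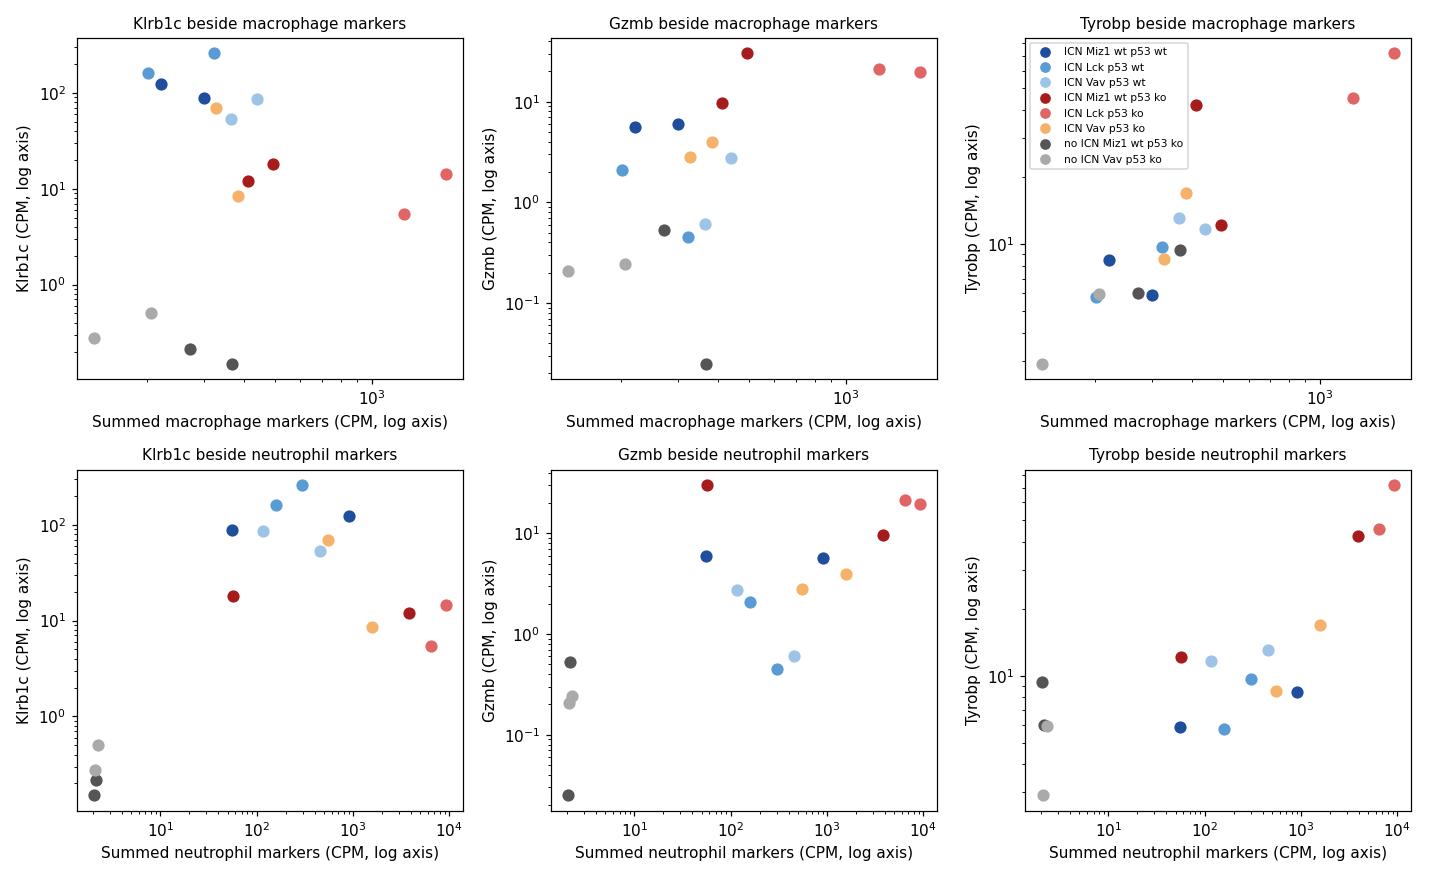
Klrb1c, Gzmb and Tyrobp (CPM, log axes) beside the summed CPM of 15 macrophage markers (top) and 11 neutrophil markers (bottom) in the 16 mice, coloured by group. Tyrobp is highest in the 3 mice with the most neutrophil marker RNA, while the mouse with the most Gzmb has 56.5 CPM of it.

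Tyrobp was the member that went most closely with markers of other cells: over the 12 ICN libraries r was 0.88 with summed mast cell and basophil markers, 0.87 with macrophage markers and 0.85 with neutrophil markers. Fcer1g had 0.84, 0.78 and 0.80. With macrophage markers, Ncr1 (0.76) and Nkg7 (0.74) came close to Fcer1g, and Klrd1 (0.57) and Klrk1 (0.56) were lower. Without the 2 libraries farthest from the median macrophage sum, both ICN Lck p53 ko, r was 0.62 for Tyrobp and 0.60 for Fcer1g. For Ncr1, Nkg7, Klrd1 and Klrk1 it was then 0.37, 0.37, 0.003 and 0.32. With dendritic cell markers these 4 genes had r of 0.67, 0.78, 0.51 and 0.60, and Tyrobp and Fcer1g 0.86 and 0.82. Without the 2 libraries farthest from the median of that sum, r in the same order was 0.61, 0.73, 0.64, 0.56, 0.73 and 0.72. With mast cell and basophil markers r was 0.29 for Ncr1, 0.50 for Nkg7, 0.56 for Klrd1 and 0.57 for Klrk1, and with neutrophil markers 0.34, 0.44, 0.62 and 0.53. Without the 2 farthest libraries of each sum these became 0.29, 0.37, 0.37 and 0.25, and -0.31, -0.07, 0.34 and 0.29. In the first order of lists, Gzmb had 0.43, 0.59 and 0.31, Prf1 0.11, 0.57 and 0.09, and Gzma 0.22, 0.27 and 0.20. Klrb1c had -0.73, -0.70 and -0.63. In ICN Miz1 wt p53 ko replicate 2, neutrophil markers were at 56.5 CPM, mast cell and basophil markers at 6.79 CPM and macrophage markers at 494 CPM, the third highest sum, and Gzmb (30.3 CPM) and Nkg7 (19.6 CPM) were at their highest of all 16 libraries. In ICN Miz1 wt p53 wt replicate 2, with 55.9 CPM of neutrophil markers, Klrb1c was at 89.1 CPM. The summed T cell markers had r between -0.27 and 0.50 with the members.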

How the data were processed

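The deposited values are raw counts of reads per gene, 1 table for each of 16 mice, with 41214 genes. Per the labels, libraries were made with a stranded mRNA kit. The tools named, per the submitters' processing notes, include TopHat2 2.0.10 and HTSeq, on mouse build mm10 (GRCm38). No source used here gives the annotation release or strand setting. The 5 totals that name no gene were left out, and genes held 20.6% to 39.6% of each table.

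Counts were fitted with edgeR 4.0.16 in R 4.3.3 (TMM scaling, filterByExpr, 17470 genes, 1 mean for each of 8 groups, quasi-likelihood F test, Benjamini-Hochberg adjustment over all genes, threshold 0.05). Levels are TMM-normalised CPM. Correlations used log2 CPM with a prior count of 2 for each gene, and log2 of the summed CPM plus 1 for a marker list. Tests were repeated with DESeq2 1.42.0, RLE scaling, no filter, a stricter filter (1 CPM in 4 libraries), the 12 ICN libraries alone and each library left out. Replicate numbers follow the order of deposit. The members and gene lists were chosen with earlier results of these data known, so their p-values are not independent evidence. Genes named are the members, up to 6 called genes of a list and comparison by p, and the 3 genes most like each member, of which 1 for Klrd1 and 1 for Tyrobp are not reported here. Splits by Miz1 group were added after seeing the data. Floors of 3 counts cover counting error only.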

Additional observations from a re-analysis of the deposited data

Results flagged for a closer look

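In 5 cases a difference between strata was looked at again because the groups did not overlap in either stratum and their order was opposite. The share of all genes that meet this rule was not computed, so nothing is read from the number of cases. For Lck against Vav with ICN and p53 ko alone, 21.2% of all genes were higher and 17.9% lower without overlap. In 4 of the 5 cases the difference includes one between the ICN p53 ko groups that led to the choice of these genes, so those are given without a test. Tyrobp and Fcer1g were higher in Lck than in Vav mice with ICN and p53 ko and lower with p53 wt, and these log2 differences were 2.88 (SE 0.84) and 2.49 (SE 0.80) apart. The Klrk1 effect of Miz1 deltaPOZ was higher without ICN than with ICN and p53 wt by 2.36 on the log2 scale (SE 0.82, adjusted p = 0.869 in edgeR, tested after seeing the data). The Gzma effect of p53 ko was lower in Vav than in Miz1 wt mice by a log2 difference of -2.77 (SE 0.97), and the Klrd1 effect was lower in Vav than in Lck mice by -1.56 (SE 1.14).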

How the results depend on the processing

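No paired analysis was made, because the labels name separate mice and give no pairing between groups. With ICN against no ICN, 8 genes of the 10 were called, 6 to 9 when 1 library was left out and 8 to 10 under the other settings. With p53 ko against p53 wt, 1 was called, 0 to 2 without 1 library, 0 with RLE scaling (Klrb1c -2.68, adjusted p = 0.0505), 5 without a filter, 6 with DESeq2 and 2 with ICN libraries only. Without a filter edgeR also called 2 genes of the 10 for deltaPOZ with ICN and p53 wt, 1 with ICN and p53 ko, 1 for the average, 1 for Lck against Vav with p53 wt, 5 with p53 ko, 2 for their difference and 1 for their mean, each against 0; DESeq2 called 1 (Tyrobp) for Lck against Vav with p53 ko. Nothing is read from the counts that use differences between the ICN p53 ko groups, which led to the choice of genes. For deltaPOZ without ICN the count was 0 to 1 when 1 library was left out. The cause was not tested. Over all genes, p53 calls numbered 34, 1588 without a filter, 1085 with DESeq2, 149 with ICN libraries only and 2 to 132 without 1 library, and ICN calls 4194 and 2524 to 4643 (fewest without an ICN Vav p53 ko library). Calls for deltaPOZ numbered 0, 1, 0 and 3 (p53 wt, p53 ko, no ICN, average) against 211, 464, 746 and 502 without a filter and 15, 120, 233 and 127 with DESeq2, and Lck against Vav 0 (p53 wt), 0 (p53 ko), 0 (difference) and 0 (mean) against 193, 476, 374 and 277 without a filter and 17, 128, 52 and 15 with DESeq2. The Gzma difference with p53 ko changed sign without ICN Miz1 wt p53 wt replicate 2 (-0.06), ICN Vav p53 wt replicate 1 (-0.07) or ICN Lck p53 ko replicate 2 (-0.19), with a range of -0.19 to 0.48 over libraries left out, and Klrb1c for Lck against Vav with p53 ko without Vav replicate 1 (0.23, range -2.89 to 0.23). Nkg7 for deltaPOZ without ICN ranged from -8.50 to 0.19, the latter without no-ICN Vav replicate 1. Ncr1 and Klrd1 rest on 14 or fewer and 25 or fewer counts in each library without ICN.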
